A study of Mus musculus with 6 samples.

Results

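Promoters of the DNA replication machinery were examined for acetylation of histone H3 at lysine 27 (H3K27ac) in mouse embryonic stem cells (mESCs). The members were defined by gene symbol, as the protein-coding genes for the origin recognition complex (ORC, Orc1 to Orc6), Cdc6, Cdt1, the MCM proteins Mcm2 to Mcm10, Cdc45, the GINS complex (Gins1 to Gins4), primase and DNA polymerases alpha, delta and epsilon (Prim1, Prim2, Pola1, Pola2, Pold1 to Pold4, Pole and Pole2 to Pole4), the clamp Pcna, the clamp loader RFC (Rfc1 to Rfc5) and the single-strand binding protein RPA (Rpa1 to Rpa3). These were 43 of the 21853 protein-coding genes in the GENCODE annotation of GRCm38, the assembly also called mm10. H3K27ac was measured by ChIP-seq in the mESC line E14 (E14Tg2A Rosa26-Cre Oct4-IRES-Puro), grown with LIF and the inhibitors PD0325901 and CT-99021, in 2 control samples given DMSO, 2 samples given NVP-2 (100 nM, a CDK9 inhibitor) and 2 given actinomycin D (labelled 800 nM, and 1 µg/ml in the treatment protocol), each for 2 h and each with HEK293T chromatin as spike-in. All 6 samples come from this 1 line, and the values below come from 1 deposited list of peaks pooled over both control samples. The list holds the positions of 22973 peaks and neither heights, scores nor reads, so no value has a replicate error, depth cannot be read from it and the treated samples were not analysed here.

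Replication begins when ORC, Cdc6 and Cdt1 load the ring of Mcm2 to Mcm7 onto origins. Cdc45 and GINS join the ring to form the active helicase (CMG), primase with polymerase alpha lays down primers, and polymerases epsilon and delta extend the leading and lagging strands with the clamp PCNA, which RFC loads, while RPA covers single-stranded DNA. Many of these genes are known targets of E2F transcription factors, which act at the entry into S phase, and mESCs are known for rapid division with a large share of cells in S phase. H3K27ac is a mark of active promoters and enhancers.

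E2F proteins bind the letters TTTCCCGC, or TTTCGCGC, or the variants TTTGCCGC and TTTGGCGC, and CCAAT is the box bound by NF-Y. Promoters of 300 bases (250 before the transcription start site (TSS) to 50 from it on, 5′ to 3′ on the gene's strand) are shown. Among them are Mcm3 to Mcm6, the members of the MCM ring that hold E2F letters in this window. The others are Mcm7, which holds them in its RefSeq promoter, Cdc6 and Rfc3, whose peaks begin close to the TSS, and Pold4, the member without a peak. Capitals mark E2F letters and CCAAT on either strand. Sequences are from the GRCm38 genome at the GENCODE TSS, except that of Mcm7, which is the RefSeq promoter on GRCm38.p6 and lies downstream of the GENCODE TSS used for Mcm7 elsewhere.
Mcm3, chr1:20820263-20820562, minus strand: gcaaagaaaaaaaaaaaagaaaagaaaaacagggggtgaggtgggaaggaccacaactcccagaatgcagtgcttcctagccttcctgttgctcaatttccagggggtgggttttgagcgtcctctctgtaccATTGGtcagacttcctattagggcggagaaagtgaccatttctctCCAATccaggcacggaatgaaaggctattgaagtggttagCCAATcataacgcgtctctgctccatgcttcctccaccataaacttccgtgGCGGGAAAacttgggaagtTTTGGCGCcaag
Mcm4, chr16:15637351-15637650, minus strand: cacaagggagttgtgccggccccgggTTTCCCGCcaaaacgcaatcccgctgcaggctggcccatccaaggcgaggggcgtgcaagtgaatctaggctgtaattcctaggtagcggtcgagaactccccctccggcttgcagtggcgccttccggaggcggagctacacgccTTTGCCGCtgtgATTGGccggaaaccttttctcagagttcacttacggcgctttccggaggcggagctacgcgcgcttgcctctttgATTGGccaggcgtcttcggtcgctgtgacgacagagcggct
Mcm5, chr8:75109319-75109618, plus strand: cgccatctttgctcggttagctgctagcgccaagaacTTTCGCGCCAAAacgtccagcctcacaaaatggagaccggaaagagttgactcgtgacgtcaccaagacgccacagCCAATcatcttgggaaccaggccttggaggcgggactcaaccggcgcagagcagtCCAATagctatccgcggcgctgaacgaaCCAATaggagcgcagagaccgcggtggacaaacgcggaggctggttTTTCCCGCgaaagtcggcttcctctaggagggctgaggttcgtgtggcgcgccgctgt
Mcm6, chr1:128359615-128359914, minus strand: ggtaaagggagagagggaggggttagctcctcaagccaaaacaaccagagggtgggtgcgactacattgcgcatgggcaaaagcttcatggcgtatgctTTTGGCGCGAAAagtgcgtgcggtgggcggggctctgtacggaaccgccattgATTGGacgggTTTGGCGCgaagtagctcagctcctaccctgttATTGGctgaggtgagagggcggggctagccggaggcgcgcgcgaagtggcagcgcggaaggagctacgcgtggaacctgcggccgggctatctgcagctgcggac
Mcm7, chr5:138171834-138172133, minus strand: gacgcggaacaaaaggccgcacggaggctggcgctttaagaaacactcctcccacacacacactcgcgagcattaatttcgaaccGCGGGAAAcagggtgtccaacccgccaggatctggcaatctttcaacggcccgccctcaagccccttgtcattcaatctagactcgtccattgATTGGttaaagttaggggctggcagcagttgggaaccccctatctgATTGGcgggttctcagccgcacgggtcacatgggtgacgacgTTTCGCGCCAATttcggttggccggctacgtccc
Cdc6, chr11:98907551-98907850, plus strand: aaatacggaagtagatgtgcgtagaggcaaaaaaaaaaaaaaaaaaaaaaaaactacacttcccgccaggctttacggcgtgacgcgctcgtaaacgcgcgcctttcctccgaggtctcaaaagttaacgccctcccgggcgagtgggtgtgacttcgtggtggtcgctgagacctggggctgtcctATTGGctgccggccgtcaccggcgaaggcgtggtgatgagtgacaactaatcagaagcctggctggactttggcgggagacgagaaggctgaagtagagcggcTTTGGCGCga
Rfc3, chr5:151651193-151651492, minus strand: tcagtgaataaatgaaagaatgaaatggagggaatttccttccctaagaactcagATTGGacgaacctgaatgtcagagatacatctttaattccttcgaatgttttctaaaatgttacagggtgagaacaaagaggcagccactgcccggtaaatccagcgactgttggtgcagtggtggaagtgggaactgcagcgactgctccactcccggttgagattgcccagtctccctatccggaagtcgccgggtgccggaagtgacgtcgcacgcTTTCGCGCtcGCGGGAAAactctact
Pold4, chr19:4231649-4231948, plus strand: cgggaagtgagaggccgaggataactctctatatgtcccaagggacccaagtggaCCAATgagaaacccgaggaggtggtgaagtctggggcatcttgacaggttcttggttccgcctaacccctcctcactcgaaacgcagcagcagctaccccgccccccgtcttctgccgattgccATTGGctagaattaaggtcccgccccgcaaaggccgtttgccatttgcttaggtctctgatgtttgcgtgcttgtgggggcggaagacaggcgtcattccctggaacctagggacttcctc

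Each gene was represented by its isoform of longest genomic span. Its promoter reached 1 kb to either side of the TSS and was called marked where a control peak overlapped it by at least 1 bp. Peaks marked 42 of the 43 replication gene promoters, or 97.7% (95% Wilson interval 87.9 to 99.6%, which covers counting error only). Over all protein-coding genes the share was 48.8%, with 10674 promoters marked. Each of the 42 had exactly 1 peak at its promoter, and no 2 members shared a peak. Members lay on 13 chromosomes. The TSS itself was inside a peak for 39 members, or 90.7% (78.4 to 96.3%), against 44.2% of all protein-coding genes. Pold4 was the only unmarked member, so every subunit of ORC, the MCM ring, GINS, primase with polymerase alpha, polymerase epsilon, RFC and RPA had a marked promoter.

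Base composition differed among the genes compared. A promoter was called CpG-rich where the 1 kb around its TSS had a GC content of at least 50% and a ratio of observed to expected CpG of at least 0.6. This held for 35 members, or 81.4%, and for 45.9% of all protein-coding genes. The median ratio of observed to expected CpG was 0.780 among members and 0.570 over all protein-coding genes, and the median GC content was 56.3% and 55.2%. All 35 CpG-rich members were marked, and so were 81.4% of all 10029 CpG-rich protein-coding promoters. The share over all genes was thus nearer to that of the members once both were limited to CpG-rich promoters. The 7 marked members that missed the limits were Cdc45, Gins1, Mcm10 and Prim1 by GC content (47.5 to 49.5%) and Mcm2, Mcm7 and Orc4 by the CpG ratio (0.558 to 0.596). Prim1 was below both, at a ratio of 0.587. Pold4 had the lowest CpG ratio of all members, 0.326, at a GC content of 55.6%.

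**Figure D1:**
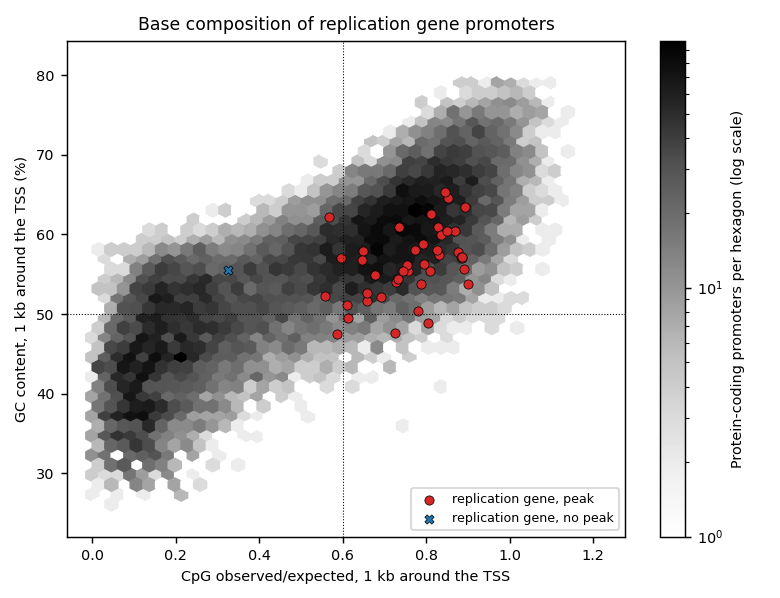
GC content (%) against the ratio of observed to expected CpG in the 1 kb around the TSS, with all 21853 protein-coding promoters as hexagons and the 43 replication genes as points (circles with a peak, a cross without). Dotted lines mark the limits of 50% and 0.6, and the cross for Pold4 lies at 0.326, left of every circle.

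Peak width was the only measure of size in the list. At the 42 marked promoters the narrowest peak measured 1018 bp, the median one 2559 bp and the widest 21195 bp, and the middle of the distribution lay between 1731.2 bp (lower quartile) and 4563.5 bp (upper quartile). Over all marked protein-coding promoters the median was 2174 bp, the lower quartile 1558 bp and the upper quartile 4832.5 bp. Among members 14 peaks were narrower than 2 kb, 20 measured 2 to 5 kb, 5 measured 5 to 10 kb and 3 were at least 10 kb wide. These 3 made up 7.14% (2.46 to 19.0%), and 10.8% of all marked protein-coding promoters had so wide a peak. A larger number of members, 27 of 42, lay above the median of all marked promoters than below it. The narrowest member peak, that of Rfc3, stood at the 11.0 percentile of all marked protein-coding promoters. With peaks of at least 1 kb only, the median over all marked promoters was 2504 bp, against 2559 bp for the members. Peaks within 2 kb of each other had been merged before deposit, so a wide peak may hold several that were called separately.

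**Figure D2:**
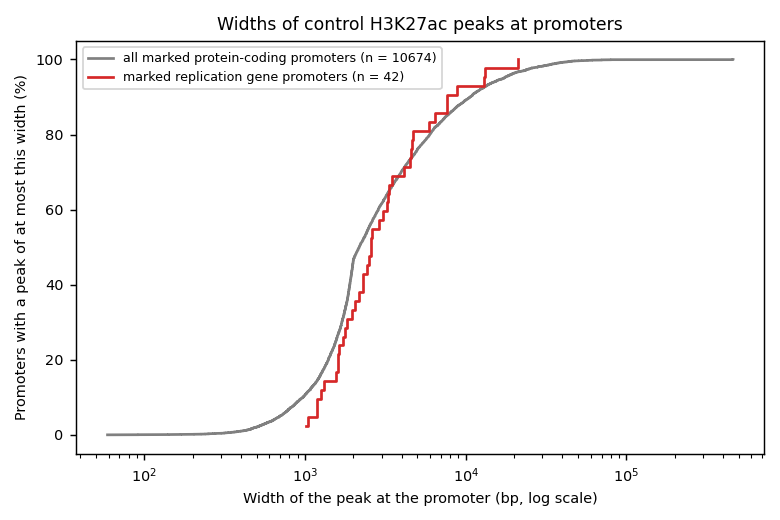
Share of promoters (%) whose peak is at most as wide as the value on the horizontal axis (bp, log scale), for 42 marked replication gene promoters and 10674 marked protein-coding promoters. The replication genes begin at 1018 bp and cross the middle of the axis at 2559 bp, to the right of the 2174 bp of all promoters.

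The widest member peak, 21195 bp, was that of Pola1, the catalytic subunit of polymerase alpha, which extends the RNA primer with DNA. Pola1 (ENSMUSG00000006678.6) is encoded on chromosome X (93304767 to 93632155, minus strand), and its peak ran from 93617470 to 93638664, 6509 bp upstream of the TSS and 14685 bp downstream into intron 4. It is the only member on chromosome X, where the 289 marked protein-coding promoters had a median peak of 5633 bp, and its width was above 96.7% of all marked protein-coding promoters. The other genes for primase and polymerase alpha had peaks of 4469 bp (Pola2, the regulatory subunit), 1597 bp (Prim2, the large primase subunit) and 1192 bp (Prim1, the catalytic primase subunit). The complex thus held both the widest peak of all members and, at Prim1, one of the 5 narrowest.

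Licensing genes held the next widest peak. Cdt1, which brings the MCM ring to ORC, lies on the plus strand of chromosome 8 from 122568015 to 122573554, and its peak of 13240 bp, from 122564195 to 122577434, held the whole gene. Cdt1 was the only member covered in full, and the same peak held the promoter of the neighbour Aprt, an enzyme of adenine salvage. Cdc6, the ATPase that loads the ring together with Cdt1, had a peak of 1189 bp, near the narrow end of the members. Orc1, the ATPase subunit whose level varies with the cell cycle, had a peak of 7663 bp that reached 5867 bp downstream, within intron 1. The peaks of the other ORC genes measured 5881 bp (Orc6), 3452 bp (Orc5), 3225 bp (Orc4), 2609 bp (Orc2) and 1714 bp (Orc3). The subunits of ORC work in 1 complex, and the widths of their peaks spanned 1714 to 7663 bp.

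The MCM ring had the widest peaks as a group, with a median of 4015.5 bp over its 6 genes and none under 2562 bp. Mcm2 is on chromosome 6 (88883474 to 88898780, minus strand), and its peak of 12963 bp, from 88890681 to 88903643, covered 52.9% of the gene and held the promoter of Tpra1. Mcm3 followed with 6413 bp, of which 621 bp lay upstream of the TSS and 5791 bp downstream, into intron 5. The peaks of the other ring genes measured 4677 bp (Mcm6), 3354 bp (Mcm7), 3270 bp (Mcm5) and 2562 bp (Mcm4). The downstream edge of the peak lay in intron 4 at Mcm5, intron 2 at Mcm7, exon 3 at Mcm4 and intron 1 at Mcm6. The MCM proteins outside the ring had peaks of 4112 bp (Mcm10, which acts when the helicase is activated), 3056 bp (Mcm9) and 2427 bp (Mcm8), the last a pair that acts together in recombination repair.

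The partners of the ring had narrower peaks, with a median of 1958 bp over the 5 genes. Gins1 had 2885 bp, Gins2 2286 bp, Cdc45 1958 bp, Gins3 1320 bp and Gins4 1041 bp. Among them Gins1 alone had a wider peak than Mcm4, the narrowest of the ring. No test was made between these groups of 3 to 8 genes, and genes are not replicates of each other.

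The clamp had a wider peak than any gene of its loader. Pcna, the sliding clamp that holds polymerases on DNA, is on chromosome 2 (132249162 to 132253314, minus strand). Its peak of 8784 bp, from 132250752 to 132259535, lay mostly before the gene, with 6221 bp upstream of the TSS and 2562 bp downstream. Among the loader genes Rfc5 had 4660 bp, Rfc2 2047 bp, Rfc4 1833 bp, Rfc1 1562 bp and Rfc3 1018 bp, the narrowest of all members. In RPA the large subunit Rpa1 had 4595 bp, Rpa2 2556 bp and Rpa3 1783 bp.

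Polymerase epsilon, the leading strand polymerase, had its widest peak at an accessory subunit. Pole4, a small histone-fold subunit, had 7637 bp, whereas Pole2 had 2506 bp, the catalytic Pole 1635 bp and Pole3 1254 bp. The marked genes of polymerase delta, the lagging strand polymerase, were alike in width, with 2311 bp at the catalytic Pold1, 2175 bp at Pold3 and 1598 bp at Pold2.

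The 5 narrowest peaks came from 5 different complexes or steps. That of Rfc3 ran from 151650280 to 151651297 on chromosome 5, that of Gins4 from 23236662 to 23237702 on chromosome 8 and that of Cdc6 from 98907804 to 98908992 on chromosome 11. The peak of Prim1 ran from 128015075 to 128016266 on chromosome 10. Pole3, a histone-fold subunit like Pole4, lies on chromosome 4 (62522649 to 62525068, minus strand), and its peak from 62524235 to 62525488 reached 420 bp upstream and 833 bp downstream of the TSS, into intron 3.

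**Figure D3:**
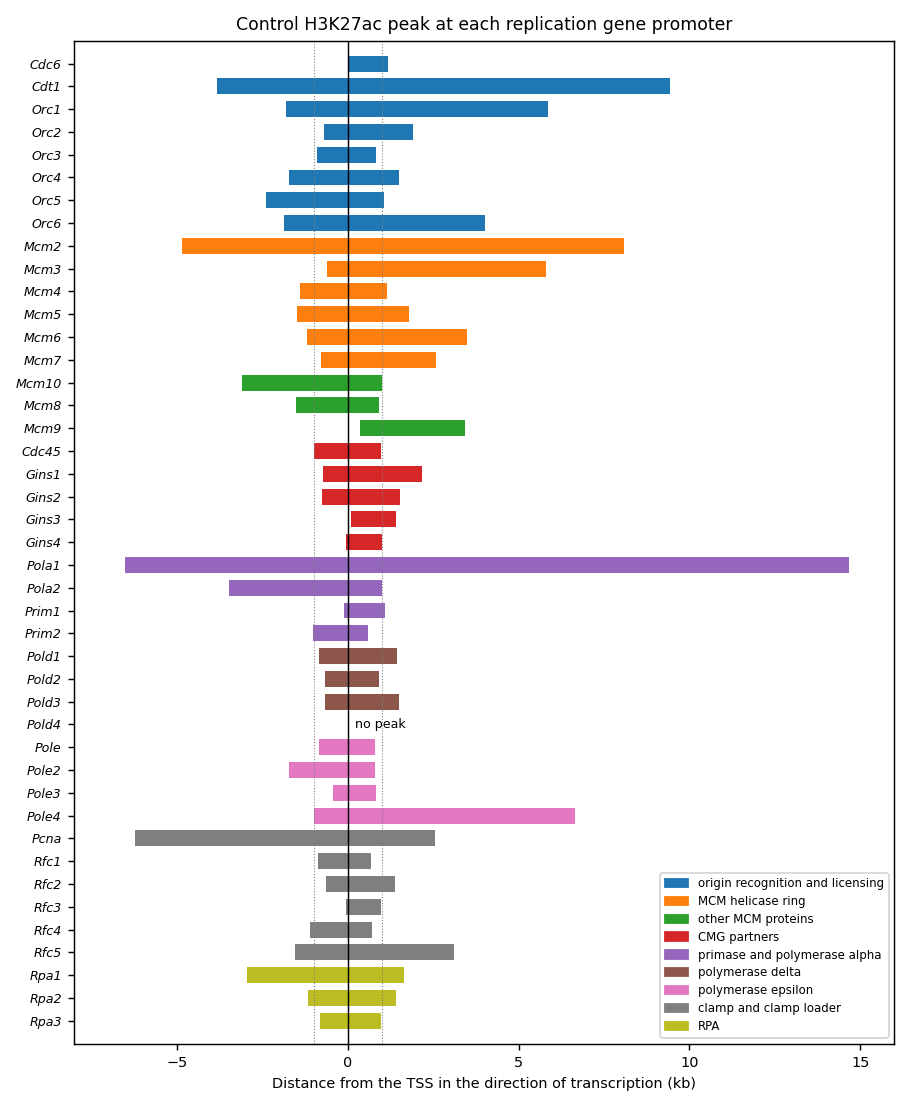
Extent of the control H3K27ac peak at each of the 43 replication gene promoters, as distance from the TSS in the direction of transcription (kb), coloured by role, with the TSS as a solid line and ±1 kb dotted. The peak of Pola1 spans 21195 bp, those of Cdc6, Gins3 and Mcm9 begin downstream of the TSS, and Pold4 has none.

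Most peaks reached further into the gene than upstream of it. Where the TSS lay inside a peak, the median reach of the 39 members was 1015 bp upstream and 1406 bp downstream, and for the 9663 protein-coding genes with a TSS inside a peak it was 904 and 1210 bp. The downstream side was the longer for 24 of 39 members, or 61.5% (45.9 to 75.1%), near the background of 65.8%. Among the 42 marked members the downstream edge of the peak lay in intron 1 for 22, or 52.4% (37.7 to 66.6%), against 63.9% of all marked protein-coding promoters. It lay in a later intron or exon for 19, or 45.2% (31.2 to 60.1%), against 24.3%, and beyond the gene end for Cdt1 (2.38%, against 6.04%). The opposite was seen at Pcna, Pola2, Mcm10 and Orc5, which reached 6221, 3476, 3099 and 2381 bp upstream and 2562, 992, 1012 and 1070 bp downstream.

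At some members the peak lay almost wholly downstream of the TSS. The peak began less than 100 bp before the TSS, or after it, at Cdc6, Gins3, Gins4, Mcm9, Prim1 and Rfc3. That was 6 of 42 marked members or 14.3% (6.72 to 27.8%), near the background of 13.2%, and this class was defined after the values were seen. Upstream reach was 97 bp at Prim1, 55 bp at Rfc3 and 43 bp at Gins4. At the other 3 the peak missed the TSS, by 3 bp at Cdc6, 92 bp at Gins3 and 373 bp at Mcm9. The mirror case, a reach under 100 bp downstream with a peak upstream, was found at 0 of 42 members (Wilson interval up to 8.38%) and at 1.75% of all marked promoters.

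The annotated start decided whether these TSS lay inside. The RefSeq start was 350 bp downstream of the GENCODE one at Cdc6, 106 bp at Gins3 and 482 bp at Mcm9, and all 3 RefSeq starts were inside the peak. The RefSeq promoter table, a source added after the values were seen, held 36 members, and 35 of them had a start inside a peak, or 97.2%, against 48.3% of the 16531 protein-coding genes matched to it. Pold4 was the exception. For 30 of the 36 the nearest RefSeq start was within 100 bp of the GENCODE TSS, and the largest distance was 539 bp, at Mcm7. Every GENCODE isoform was marked for 36 members, and some but not all were marked for Mcm9 (5 of 7), Orc2 (3 of 4), Pola2 (3 of 5), Pole (2 of 3), Rfc1 (4 of 5) and Rpa2 (1 of 2). The matching counts over all protein-coding genes were not made. With any marked isoform counted, the share of marked members stayed at 97.7%, and that of all protein-coding genes was 51.0%.

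Replication genes often shared their promoter with a gene on the opposite strand. A TSS on the opposite strand lay within 1 kb for 15 of 43 members, or 34.9% (22.4 to 49.8%), against 11.6% of all protein-coding genes. The partner was protein-coding in 12 cases and a lincRNA in 3, and its TSS was upstream, head to head, in 12. The closest pair was Orc3 and Rars2, the mitochondrial arginyl-tRNA synthetase, with 13 bp between their starts. In ORC only Orc2 and Orc5 had a lincRNA as partner (Gm15834 at 46 bp and 6030443J06Rik at 69 bp), whereas Orc1 was paired with the splicing factor Prpf38a at 118 bp, Orc4 with Mbd5 at 247 bp and Orc6 with the retromer subunit Vps35 at 113 bp. Mcm4 was paired with Prkdc, the catalytic subunit of the DNA-dependent protein kinase, at 489 bp, and their promoters were in 1 peak of 2562 bp. Other pairs were Mcm7 with Ap4m1, Mcm8 with Trmt6, Cdc45 with Ufd1, Pole with Pxmp2, Pole3 with 4933430I17Rik, Rfc5 with Gm15728, Rpa1 with Smyd4 and Rpa3 with Umad1. No gene for polymerase delta or alpha, primase or RFC other than Rfc5 had such a partner.

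All 15 paired members were marked (79.6 to 100%), near the background of 86.5% of the 2526 protein-coding genes with such a partner. Their peaks had a median width of 2609 bp, against 2506 bp at the 27 marked members without a partner. Over all protein-coding genes of the same kinds the medians were 2226 and 2150.5 bp. Reach was more even at paired promoters. With a partner the median reach was 1403 bp upstream and 1158 bp downstream, and without one it was 999 and 1431 bp. The downstream side was the longer in 7 of 15 paired members (46.7%) and in 17 of 24 unpaired ones (70.8%), both near the background of 49.6% and 70.3% over protein-coding genes of the same kind. The peak held the promoter of another gene for 17 marked members, or 40.5%, against 29.3% of all marked protein-coding promoters. In such peaks the acetylation of the 2 genes cannot be told apart. The neighbours were the 15 partners and, at Cdt1 and Mcm2, the more distant Aprt and Tpra1.

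Promoter sequence was searched for 9 short motifs on both strands, which may overlap each other. E2F letters were found in 15 of 43 members, or 34.9% (22.4 to 49.8%), and in 2.82% of all protein-coding promoters of the same length. Among CpG-rich promoters the shares were 14 of 35 members and 4.77% of all. The 15 were Mcm3, Mcm4, Mcm5, Mcm6, Mcm8, Orc1, Orc3, Cdc6, Cdt1, Gins1, Pola1, Pole, Pole2, Pole4 and Rfc3. In this window polymerase delta and RPA had none. When matches that share bases were counted as 1 site, 5 members held at least 2 sites (Mcm3, Mcm4, Mcm5, Mcm6 and Rfc3), or 11.6%, against 0.124% of all protein-coding promoters. These are matches of letters, and binding of E2F was not measured.

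As the sequences above show, matches in the MCM ring lay at different places. Offsets are counted from the TSS, which is base 0, and are negative upstream. Mcm5 had an overlapping pair that began at -213 and -209 and a further match from -8 to -1. Mcm6 had an overlapping pair that began at -151 and -147 and a further match at -88. In Mcm4 the matches began at -224 and -78, and in Mcm3 both were after the TSS, at 19 and 38. Mcm2 and Mcm7 had none in the main window. Other windows added members from several complexes. With 500 bases before to 100 after the TSS, 21 of 43 members held E2F letters, against 4.58% of all protein-coding promoters, and the gain was Mcm2, Gins2, Gins3, Pold1, Pold3 and Rpa2. In Mcm2 an overlapping pair began 82 and 86 bases after the TSS. With all isoforms 19 members held them, against 4.29%, and the gain was Mcm7, Gins3, Pold1 and Pold3. These same 4 also held them in their RefSeq promoters, where 16 of 36 members and 3.31% of all matched protein-coding genes did. The RefSeq promoter of Mcm7 held matches 165 bases before and 16 bases after its own start. Pola1 lost its match with 100 bases before to 50 after the TSS, and Orc1 lost its own with TTTGGCGC and TTTCCCGC only. Of all 23 matches in members, 9 lay after the TSS (39.1%), in 7 genes, and 122 of 650 (18.8%) did so over all protein-coding genes. The median offset of a match was -5.50 bases in members and -89.5 bases over all genes.

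CCAAT was found in 28 of 43 members (65.1%, 50.2 to 77.6%), against 38.7% of all protein-coding promoters, and in 22 of 35 CpG-rich members, against 37.4%. Both E2F letters and CCAAT were in 11 members (25.6%), against 1.24%. All 5 genes of CMG partners, all 3 of RPA, all 3 MCM genes outside the ring and 5 of the 6 genes of the ring held CCAAT. It was in 3 of 4 genes for primase and polymerase alpha and 4 of 8 for origin recognition and licensing. Polymerase delta had it in 2 of 4 genes, the clamp and its loader in 2 of 6 and polymerase epsilon in 1 of 4. The GC box GGGCGG, bound by SP factors, was in 30 members (69.8%), against 45.0%, and the ETS letters CCGGAAG in 18 (41.9%), against 11.2%. The E box CACGTG was in 7 members (16.3%), against 7.74%, the YY1 letters AAGATGG in 4 (9.30%), against 6.26%, and the cAMP response element TGACGTCA in 2 (4.65%), against 2.46%. The cell cycle homology region (CHR), spelled TTTGAA or TTCGAA, was in 3 members (6.98%), against 17.4%, and TATAAA in 4 (9.30%), against 12.4%. For YY1, CHR, TATAAA and the cAMP response element the interval of the members held the share over all genes. None of the 9 motifs was in the promoters of Pole3 and Rfc2, or 4.65% of members, against 16.9%. These shares carry no test. Only E2F letters and CCAAT were also counted among CpG-rich promoters alone, and the part of base composition in the other shares was not tested.

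**Figure D4:**
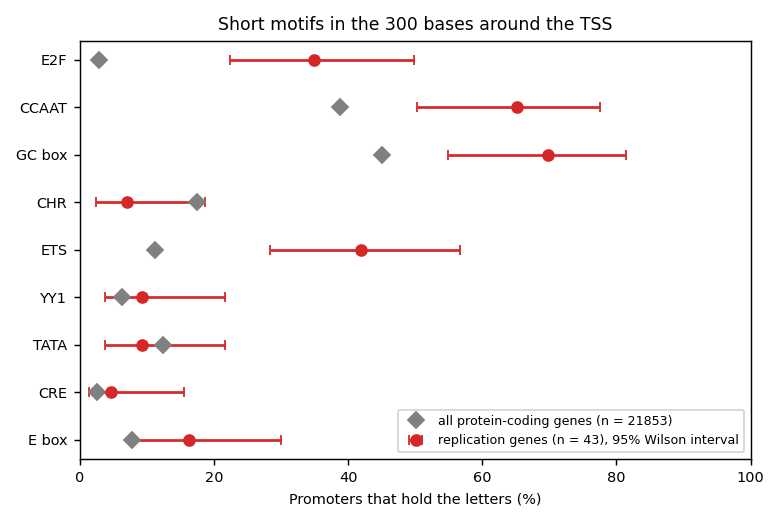
Share of promoters (%) that hold each of 9 motifs in the 300 bases around the TSS, for 43 replication genes (circles, with 95% Wilson intervals) and for all 21853 protein-coding genes (diamonds). E2F letters stand at 34.9% against 2.82%, whereas the shares of all genes for YY1, CHR, the TATA letters and the cAMP response element (CRE) lie within the intervals.

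Marked promoters with and without E2F letters overlapped in peak width. The 15 members with E2F letters had a median of 2885 bp and lay between 1018 and 21195 bp. The 27 without had a median of 2311 bp and lay between 1041 and 12963 bp. Over all marked protein-coding promoters the medians were 2649 bp with and 2145 bp without these letters. Rfc3 and Pola1, the narrowest and the widest peak of the members, both held E2F letters.

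Pold4, the smallest subunit of polymerase delta, was unmarked under every window, isoform and overlap tried. Pold4 (ENSMUSG00000024854.4) lies on the plus strand of chromosome 19 from 4231899 to 4233634, and none of its 3 isoforms was marked. The nearest peak ended 16.4 kb upstream of its TSS, at 4215495, and the next one downstream began 62.2 kb away, at 4294131. The nearest peak was closer than that at the median of the 11179 unmarked protein-coding genes, 60.3 kb. That upstream peak of 852 bp lay at the promoters of Clcf1 and of AC109138.7, a gene model annotated from 4214357 to 4233297 that overlaps Pold4. Of the 7 other protein-coding and lincRNA genes with a TSS within 50 kb, 5 were marked, among them Rad9a, a subunit of a checkpoint clamp, and Ppp1ca, a phosphatase catalytic subunit. All 5 lay upstream of Pold4, and both on its downstream side (AC109138.4 and Ssh3) were unmarked. Whether the promoter of Pold4 carried H3K27ac below the study's limits on height or distance to open chromatin cannot be read from the list.

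**Figure D5:**
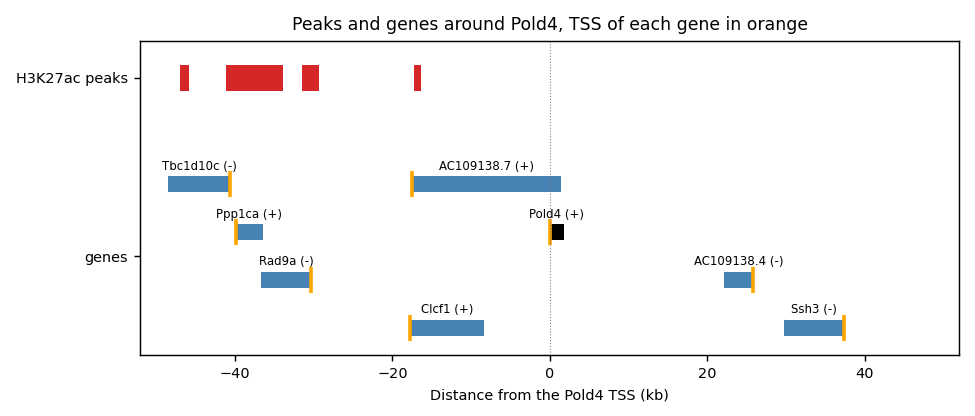
Control H3K27ac peaks (red) and protein-coding and lincRNA genes (blue, Pold4 in black, TSS in orange) by distance from the Pold4 TSS (kb). Of the 7 other genes with a TSS within 50 kb, the 5 upstream are marked, and no peak lies between the one that ends 16.4 kb upstream and the right end of the plot.

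Peaks away from the promoter were also counted. A further peak was counted where it overlapped the annotated span of the gene, also before the TSS used or at another gene's promoter. Such a further peak was found for 13 of 43 members, or 30.2% (18.6 to 45.1%), against 21.9% of all protein-coding genes. Prim2 and Pole4 had 3 each and Mcm9 had 2. Within 50 kb of the TSS, members had a median of 1 peak that overlapped no promoter, and at most 5, at Cdc6, whereas the median over all protein-coding genes was 0. At least 1 such peak was found for 28 members, or 65.1% (50.2 to 77.6%), against 46.8% of all protein-coding genes. For the other 15, among them Orc1, Orc2, Orc4 and Orc6, there was none.

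Other replication genes gave a similar share. A list of 38 further symbols with 39 gene models (Chtf8 has 2) held regulators of origin firing, fork proteins, Okazaki fragment enzymes, histone chaperones and enzymes of nucleotide supply. Of the 39 promoters 38 were marked, or 97.4% (86.8 to 99.5%), against 48.8% of all protein-coding promoters and 81.4% of the CpG-rich ones. CpG-rich promoters made up 35 of the 39. All 38 marked ones had the TSS inside the peak, as did 9663 of the 10674 marked protein-coding promoters. The unmarked one was Rif1, a regulator of replication timing, whose promoter was CpG-rich and lay 25.8 kb from the nearest peak. The widest peaks were at Ticrr (18180 bp), which acts in origin firing, Tk1 (17028 bp), the thymidine kinase, and Rrm2 (11546 bp), a subunit of ribonucleotide reductase. E2F letters were in 8 of these 39 promoters, or 20.5% (10.8 to 35.5%), against 2.82% of all protein-coding promoters and 4.77% of the CpG-rich ones.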

How the data were processed

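ChIP-seq samples were grouped by their treatment labels. Per the labels and the paper's methods, the authors aligned reads to mm10 together with a human genome, removed duplicates (Picard 2.9.1) and poorly mapped reads (SAMtools 1.4), called peaks with LanceOtron, merged those within 2 kb and filtered them by height and by distance to ATAC-seq summits. The deposited list gives positions in base pairs, printed here counted from 1. It was compared with GENCODE M21 and the GRCm38.p6 genome, on which no peak reached past a chromosome end. Protein-coding and lincRNA genes and transcripts entered (27706 genes). Where several isoforms existed, that with the longest genomic span was used. All members are named, with the unmarked, the 5 widest, the 5 narrowest and those that change under an alternative described in full. The members, lists and motifs were chosen with earlier results of these data known. No test was run, since the list has no replicates and genes were not sampled. Shares have 95% Wilson intervals. On simulated peaks, all 21853 promoter states were recovered. Presence or absence of E2F letters was called rightly in 1000 of 1000 simulated sequences. Their other bases were only A and T, unlike those of promoters, so false matches were hardly possible there. Python 3.11.15, numpy 2.4.6, scipy 1.17.1, pysam 0.24.0, matplotlib 3.10.9 and samtools 1.23.1 were used. Alternatives were other promoter windows, isoforms, overlaps, motif windows and spellings, and RefSeq starts, the last added after the values were seen. NVP-2 and actinomycin D samples were not analysed here.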

Additional observations from a re-analysis of the deposited data

How the results depend on the processing

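The share of marked replication gene promoters, 97.7%, lay between 90.7 and 97.7% under all 10 alternatives (9 fixed earlier and the RefSeq start, added after the values were seen), inside its interval each time, while that of all protein-coding genes (48.8%) lay between 43.4 and 51.0%. The median width of 2559 bp lay between 2311 and 2562 bp under 9 alternatives, while that of all marked protein-coding promoters (2174 bp) lay between 1973 and 2504 bp. The 2 medians were closest with peaks of at least 1 kb, at 2559 and 2504 bp. The median reach lay between 927 and 1015 bp upstream and between 1402 and 1456 bp downstream under 4 alternatives. The share with E2F letters, 34.9%, lay between 32.6% (TTTGGCGC and TTTCCCGC only, or 100 bases before to 50 after the TSS) and 48.8% (500 bases before to 100 after), while that of all protein-coding genes lay between 1.53 and 4.58%. Of 408 values for the peak of a single member, 3 changed, all with the TSS itself in place of the window (Cdc6, Gins3 and Mcm9). Of 251 values for E2F letters, 14 changed to present and 2 to absent. The list has no score, so the weight of either control library was not tested. No paired analysis was possible because the peak list used here pools both control replicates, so no replicate could be left out either. Data of single replicates were not used here.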
